A study of Mus musculus with 6 samples.

Results

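A set of 10 genes encoding chemokine ligands of macrophages was followed in bone marrow derived macrophages (BMDMs), namely Ccl2, Ccl3, Ccl4, Ccl6, Ccl7, Ccl9, Ccl24, Cxcl2, Cxcl16 and Pf4. They were chosen by symbol as macrophage chemokine ligands, and all 10 were among the 55291 genes of the count table, of which 18659 had at least 1 count. Chemokines are small secreted proteins that guide leukocytes along gradients by binding G protein-coupled receptors, and they are grouped as CC or CXC by the spacing of their first cysteines. Macrophages release them to recruit monocytes, neutrophils and lymphocytes. Many of their genes are switched on through NF-κB, and several of their mRNAs carry AU-rich elements that shorten their life.

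The study cultured BMDMs from wild-type (WT) mice and from mice with a whole-body deletion of PYK2, a cytoplasmic tyrosine kinase encoded by Ptk2b, both on a C57BL/6 background. Marrow cells of 3 WT mice (numbered 1, 5 and 6) and 3 PYK2 KO mice (numbered 2, 3 and 4) were grown for 7 days with L929-conditioned medium as the source of M-CSF, the growth factor of macrophages, and no other stimulus is stated for them. The sources used here give no age or sex. Because the deletion was present throughout life and in every cell, effects of development and of the cultured cells cannot be told apart. Libraries were made by a bulk form of MARS-seq, which counts the 3′ ends of transcripts.

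The 6 libraries held 2857097 to 3917207 counts. Ptk2b, the deleted gene, had 737, 701 and 568 counts in WT and 71, 64 and 69 in PYK2 KO. Scaled to library size, as counts per 1000000 (CPM), these were 195 ± 5.63 CPM and 21.8 ± 1.14 CPM (SD, n = 3 each), with a log2 fold change of -3.15 ± 0.10 (SE, edgeR adjusted p = 1.031e-11), so every library matched its genotype label. All 12 macrophage markers passed the filter on low counts, their summed level was 32980 to 35520 CPM over the 6 libraries, and 0 were called by edgeR, by DESeq2 or by limma-voom, with 0 at an unadjusted p under 0.05. The 3 with the smallest p-values were C1qa, C1qc and Lyz2. Marker lists of dendritic cells, T cells, eosinophils, basophils and mast cells, and fibroblasts had no gene past the filter and summed to at most 2.25 CPM. Of the B cell markers only Cd79b passed, with a log2 fold change of -0.24. WT library 6 stood apart from the other WT libraries for several of the ligands, as their levels below show.

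Of the 10 ligands, 9 passed the filter and 1, Ccl6, was called as different between genotypes. The level of Ccl6 was higher in all 3 PYK2 KO libraries than in any WT library. Its call was lost when any 1 of the 6 libraries was left out. The other 8 tested ligands had log2 fold changes below 0 and 0 of them passed the test. Over all 9815 genes tested, edgeR called 25 genes at an adjusted p under 0.05, 11 higher and 14 lower in PYK2 KO, which is 0.255% of them. The median log2 fold change of the 9 ligands was -0.24, against 0.0019 over all genes tested, and 4854 of the 9815 genes had a negative value. Without WT library 6, 5 ligands had a negative value, 4 a positive one, and the median was -0.03. In bulk RNA a smaller number of expressing cells and less RNA per cell cannot be told apart.

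The ligands Ccl3 and Ccl4 reached an unadjusted p under 0.05 in the lower direction (2 of 9), which 2.63% of all genes tested did, and 1 (Ccl6) in the higher direction, which 3.4% did. The PYK2 KO values lay wholly below the WT values for 0 of the 9 ligands (5.07% of all genes tested) and wholly above them for 1 (5.17%). The count of 2 lower ligands became 0 without WT library 6, without PYK2 KO library 2 or without PYK2 KO library 4, and 6, 3 and 5 without WT library 1, WT library 5 and PYK2 KO library 3. It was 5 when low genes were not filtered. DESeq2 and limma-voom also called 1 ligand each.

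**Figure D1:**
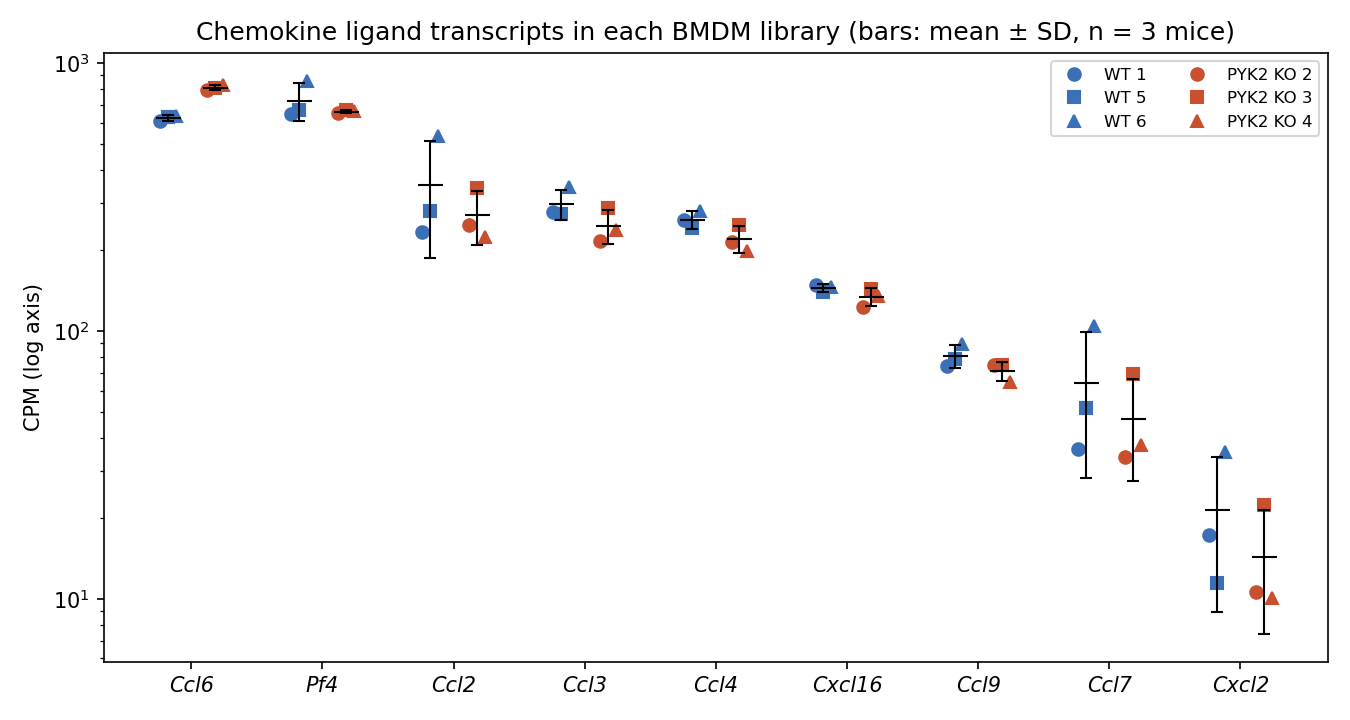
Level of each of the 9 tested ligands in every library, in CPM on a log axis; blue marks are WT and red marks PYK2 KO mice, and the bars give the mean ± SD of 3 mice. Only for Ccl6 do the genotypes not overlap, at 607 to 636 CPM in WT and 793 to 829.8 CPM in PYK2 KO.

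The ligands together took 0.23% to 0.303% of the counts of a library. Shares of counts compare transcripts by their 3′ ends and were not divided by length. Ccl6 and Pf4 were the most abundant, with 28.5% and 27.5% of all ligand counts, and ranked 191 and 199 in the whole table. Ccl2 followed with 12.1%, Ccl3 with 10.9%, Ccl4 with 9.62%, Cxcl16 with 5.59%, Ccl9 with 3.02%, Ccl7 with 2.14% and Cxcl2 with 0.695%. The order of the first 2 differed by genotype. Pf4 led in every WT library, with 28.1%, 28.1% and 28.4% of ligand counts against 26.4%, 26.4% and 21% for Ccl6, and Ccl6 led in every PYK2 KO library, with 33.5%, 30.3% and 34.6% against 27.5%, 25% and 27.5% for Pf4. Farther down, the WT ranges of Ccl2, Ccl3 and Ccl4 overlapped with one another, as did those of Ccl9 and Ccl7.

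Ccl6 and Ccl9 are neighbours on mouse chromosome 11 and encode CC chemokines that bind CCR1, a receptor of myeloid cells. Their promoters share stretches of sequence, and are shown because the 2 genes had log2 fold changes of opposite sign. Of the 10 ligands, 5 (Ccl3, Ccl6, Ccl9, Cxcl2 and Pf4) were matched in the RefSeq promoter table (GRCm38.p6), and the promoters of Ccl2, Ccl4, Ccl7, Ccl24 and Cxcl16 were not used here. The lines below give bases -100 to 29 around the start of transcription, on the minus strand, and the capitals mark runs of at least 10 bases that also occur in the 300-base promoter of the other gene.
Ccl6, chr11:83593058-83593187: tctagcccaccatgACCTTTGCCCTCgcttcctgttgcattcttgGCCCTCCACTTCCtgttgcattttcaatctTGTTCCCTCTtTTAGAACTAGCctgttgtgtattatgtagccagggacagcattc
Ccl9, chr11:83578607-83578736: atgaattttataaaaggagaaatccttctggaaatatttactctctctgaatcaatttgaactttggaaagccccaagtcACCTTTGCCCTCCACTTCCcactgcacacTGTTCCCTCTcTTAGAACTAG

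Ccl6 was counted 2378, 2240 and 1814 times in WT libraries 1, 5 and 6 and 2471, 2328 and 2784 times in PYK2 KO libraries 2, 3 and 4. Scaled to library size these were 607, 627 and 636 CPM in WT and 793, 806 and 829.8 CPM in PYK2 KO. Every PYK2 KO library was above every WT library, and the libraries of one genotype lay close together. The mean rose from 623 ± 14.6 CPM to 809.6 ± 18.7 CPM (SD, n = 3 each), a 1.30-fold difference with a 95% interval of 1.16 to 1.45, and a log2 fold change of 0.38 ± 0.07 (SE). The edgeR p was 0.000124 and the adjusted p 0.0485, the 25th smallest of the 25 genes called. The exact permutation test over libraries gave 0.1, the smallest p that 3 against 3 mice allow, and 0.2 to 0.6 for the other 8 tested ligands.

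The call of Ccl6 sat just inside the threshold. It was kept under each of 8 other normalizations, filters and tests, with adjusted p-values from 0.000227 to 0.0496. It was lost whenever 1 library was left out, for each of the 6 libraries, with adjusted p-values from 0.0869 to 0.315, while the log2 fold change stayed between 0.36 and 0.39.

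Markers of other myeloid cells stood beside Ccl6 as follows. Of 10 neutrophil markers 7 passed the filter, 0 were called by edgeR, DESeq2 or limma-voom, and 3 had an unadjusted p under 0.05, all higher in PYK2 KO (3.4% of all genes tested), namely S100a9 (log2 fold change 0.85), Prtn3 (0.53) and Mpo (1.19). Of the 7, 5 had log2 fold changes above 0 and 2 below, with a median of 0.19, and S100a8, the partner of S100a9, singled out after its value was seen, had 0.10. Without the filter on low counts edgeR called 1 of them, S100a9, in a fit that called 159 of 18659 genes (0.852%). S100a9 was also called without WT library 1, at 1.37 (edgeR adjusted p = 0.0173, against 0.0962 or higher without any other library). Their summed level was 144 to 197 CPM in WT and 152, 258 and 257 CPM in PYK2 KO libraries 2, 3 and 4, and Ly6g, which defines neutrophils, had 1 count in all. In PYK2 KO library 2 Ccl6 was at 793 CPM, above every WT library, and the neutrophil sum was within the WT range. The single markers differed there. Prtn3 (18.3 CPM) and Mpo (3.53 CPM) were above every WT library. S100a8 (21.5 CPM), Camp (4.49 CPM) and Ltf (15.1 CPM) were below every WT library, the last 2 singled out after their values were seen. Of 5 monocyte markers 2 passed, 0 were called by edgeR, DESeq2 or limma-voom and 1 had an unadjusted p under 0.05. Ly6c2, which marks inflammatory monocytes, had 27, 31 and 30 counts in WT and 41, 41 and 43 in PYK2 KO (log2 fold change 0.64, edgeR adjusted p = 0.591). The summed monocyte markers were 17.9 to 22.2 CPM in WT and 22.5 to 27.7 CPM in PYK2 KO. The part of these cells in the level of Ccl6 was not tested.

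Ccl9 was at 73.8, 78.9 and 89.4 CPM in WT and 74.4, 74.5 and 64.4 CPM in PYK2 KO. Its means were 80.7 ± 7.94 and 71.1 ± 5.82 CPM (SD, n = 3 each), and the genotypes overlapped. The log2 fold change was -0.18 with a 95% interval of -0.40 to 0.04 (edgeR adjusted p = 0.896), and it was -0.10 without WT library 6, the highest. The ratio of Ccl6 to Ccl9 counts was 8.23, 7.94 and 7.11 in WT and 10.7, 10.8 and 12.9 in PYK2 KO. Ccl6 and Ccl9 transcripts share at most 25 bases in a row.

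Ccl3 and Ccl4 (MIP-1α and MIP-1β) attract monocytes and T cells and are induced by NF-κB. Ccl3 was at 278, 273 and 343 CPM in WT and 217, 288 and 238 CPM in PYK2 KO, so PYK2 KO library 3 was within the WT range. Its means were 298 ± 39.2 and 248 ± 36.5 CPM (SD, n = 3 each), with a log2 fold change of -0.27 and a 95% interval of -0.51 to -0.03. The edgeR p was 0.03 and the adjusted p 0.739.

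Ccl4 was at 259, 242 and 281 CPM in WT and 215, 249.7 and 198 CPM in PYK2 KO. Again PYK2 KO library 3 was within the WT range and the other PYK2 KO libraries were below it. Its means were 261 ± 19.8 and 221 ± 26.2 CPM (SD, n = 3 each), with a log2 fold change of -0.24 and a 95% interval of -0.44 to -0.03. The edgeR p was 0.0258 and the adjusted p 0.725. Leaving out 1 library at a time gave log2 fold changes of -0.39 to -0.16 for Ccl3 and -0.33 to -0.16 for Ccl4. Without WT library 6, the highest for both, they were -0.16 and -0.18, with edgeR p-values of 0.189 and 0.109 before adjustment. Without PYK2 KO library 2 these p-values were 0.147 and 0.0696, and without PYK2 KO library 4 they were 0.0806 and 0.122.

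Ccl2 and Ccl7 (MCP-1 and MCP-3) are the main ligands of CCR2 and draw monocytes out of the marrow and into tissue. Ccl2 had 917, 1000 and 1525 counts in WT and 779, 985 and 753 counts in PYK2 KO, or 234, 279.9 and 535 CPM and 249.9, 341 and 224 CPM. WT library 6 was far above the other 5 libraries, which ran from 224 to 341 CPM. The means were 349.5 ± 162 and 272 ± 61.4 CPM (SD, n = 3 each), with a log2 fold change of -0.36 and a 95% interval of -0.83 to 0.12 (edgeR adjusted p = 0.912). Without WT library 6 the log2 fold change was 0.079. Ccl2 passed the threshold only when low genes were not filtered, at -0.36 with an edgeR adjusted p of 0.0111, and the adjusted p was 0.562 or higher under each other alternative. Gm17268 overlaps Ccl2 on the opposite strand and had no count.

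Ccl7 was at 36.3, 51.5 and 104 CPM in WT and 34, 69.3 and 37.6 CPM in PYK2 KO. The highest library was again WT library 6 and the next PYK2 KO library 3, and the genotypes overlapped. The log2 fold change was -0.42 with a 95% interval of -1.07 to 0.22 (edgeR adjusted p = 0.932), and 0.091 without WT library 6.

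Cxcl2 (MIP-2) is a ligand of CXCR2 that draws neutrophils. Its promoter and mRNA sites are shown because its level varied most among libraries and because it was the only ligand of the 10 with the AU-rich nonamer TTATTTATT in its 3′ UTR. In bases -150 to -21 of its promoter (RefSeq, GRCm38.p6, plus strand) the capitals mark the matches to the NF-κB consensus.
Cxcl2 promoter, chr5:90903749-90903878: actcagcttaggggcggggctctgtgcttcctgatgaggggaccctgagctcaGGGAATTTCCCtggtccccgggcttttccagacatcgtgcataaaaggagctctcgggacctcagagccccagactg
In the 3′ UTR of Cxcl2 (GENCODE M21, GRCm38, plus strand) the capitals mark 2 of 4 copies of the AU-rich nonamer.
Cxcl2 site 1, chr5:90905316-90905344: gagagttcacTTATTTATTtatctatgta
Cxcl2 site 2, chr5:90905880-90905908: gtggacacatTTATTTATTcatgtatttt

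Promoters were searched on both strands for the NF-κB consensus, for TGANTCA as the AP-1 site, for TATAAA as the TATA box and for GAGGAA as the PU.1 core. These occurred in 8.46%, 7.81%, 13.6% and 28.3% of 32851 promoters of 300 bases. The NF-κB matches of Cxcl2, on both strands at -97 and -96, overlapped each other. Ccl9 had an NF-κB match at -35 on the minus strand, an AP-1 match at -53 and TATA matches at -224, -94 and -92, the last 2 overlapping. Cxcl2, Ccl3 and Pf4 had a PU.1 match each, and Ccl6 had none of the 4 motifs in this window. The nonamer TTATTTATT was found in the 3′ UTR of Cxcl2 and of no other ligand here, and in 7.68% of 9269 tested genes with an annotated 3′ UTR. Its core ATTTA, which overlaps it, occurred 11 times in Cxcl2, 5 times each in Ccl3 and Ccl9, 4 in Ccl6, 1 in Ccl2 and 0 in Ccl24. Of the 9269 genes, 68.4% had ATTTA and 36.1% had it 3 or more times. These counts were not divided by length, and the 3′ UTRs of the ligands ran from 123 bases in Pf4 to 2465 in Ccl9.

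Cxcl2 had 68, 41 and 101 counts in WT and 33, 65 and 34 counts in PYK2 KO, or 17.4, 11.5 and 35.4 CPM and 10.6, 22.5 and 10.1 CPM. WT library 6 was highest and PYK2 KO library 3 next, and the genotypes overlapped. The log2 fold change was -0.55 with a 95% interval of -1.30 to 0.20 (edgeR adjusted p = 0.912). Leaving out WT library 6 gave -0.03. Leaving out PYK2 KO library 3 gave -1.01. Cxcl2 shares a run of 110 bases with Cxcl3, 1687 bases from its 3′ end, but Cxcl3 had only 29 counts in all.

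Cxcl16, a ligand of CXCR6, is made as a membrane protein and shed by ADAM10. It was at 149, 139.7 and 146 CPM in WT and 123, 143 and 136 CPM in PYK2 KO, overlapping. The log2 fold change was -0.11 with a 95% interval of -0.29 to 0.07 (edgeR adjusted p = 0.935). Zmynd15 overlaps Cxcl16 on the opposite strand and had 98 counts in all, and whether counting used the strand is not given in the sources used here.

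Pf4 (CXCL4) is best known from platelet granules and binds glycosaminoglycans, and CXCR3 has been described as its receptor. It was at 647, 667 and 860.1 CPM in WT and 649.7, 666 and 660.2 CPM in PYK2 KO. WT library 6 was high and the other 5 libraries fell within 647 to 667 CPM. The means were 725 ± 118 and 659 ± 8.17 CPM (SD, n = 3 each), with a log2 fold change of -0.14 and a 95% interval of -0.35 to 0.07 (edgeR adjusted p = 0.933), and 0.0037 without WT library 6. Of 10 megakaryocyte and platelet markers 7 had at most 3 counts in every library, 4 of these had none, and Ppbp, the platelet chemokine next to Pf4, had 3 counts in all. Only Vwf and Treml1 passed the filter, with log2 fold changes of 0.08 and -0.29, and 0 were called by edgeR, DESeq2 or limma-voom or had an unadjusted p under 0.05. The whole list summed to 84.1 to 105 CPM in WT and 95.3 to 102 CPM in PYK2 KO. Nearly all of this sum was Vwf, at 77.5 to 96 CPM in WT and 90.5 to 95.3 CPM in PYK2 KO. The part of such cells in the level of Pf4 was not tested.

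Ccl24 (eotaxin-2), an eosinophil attractant induced by IL-4, had 2, 2 and 0 counts in WT and 0, 0 and 2 in PYK2 KO. No library exceeded the floor of 3 counts, so no fold change is given.

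**Figure D2:**
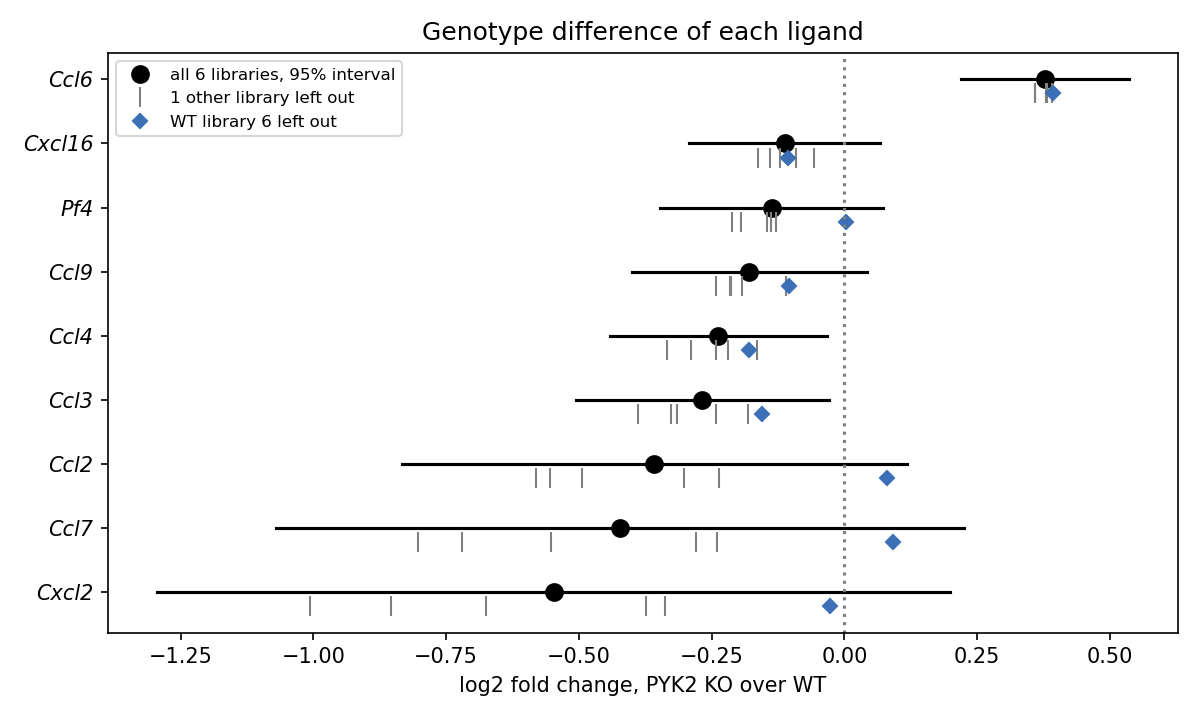
Log2 fold change of PYK2 KO over WT for the 9 tested ligands, with 95% intervals (black); grey ticks leave out 1 other library and blue diamonds WT library 6. Ccl6 alone lies above 0 in every fit, while Ccl2, Ccl7 and Pf4 move from below 0 to 0.079, 0.091 and 0.0037 without WT library 6.

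The ligands differed in their spread among libraries of one genotype. Ccl6 varied by a coefficient of variation of 2.34% among WT and 2.31% among PYK2 KO libraries, while Cxcl2 varied by 58.2% and 48.7%, Ccl7 by 55.7% and 41.4%, and Ccl2 by 46.3% and 22.6%. Between the WT libraries other than library 6 the coefficient was 28.9% for Cxcl2, 24.6% for Ccl7, 12.6% for Ccl2 and 2.26% for Ccl6. Counting alone gives 13.2% for Cxcl2, 7.54% for Ccl7, 3.17% for Ccl2 and 2.07% for Ccl6 at their mean counts. The highest library was 3.49 times the lowest for Cxcl2, 3.06 times for Ccl7, 2.38 times for Ccl2 and 1.21 times for Cxcl16. The edgeR biological coefficient of variation was 27.1% for Cxcl2, 24.8% for Ccl7, 19.4% for Ccl2 and 8.05% for Ccl6, against a median of 9.07% over all genes tested.

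**Figure D3:**
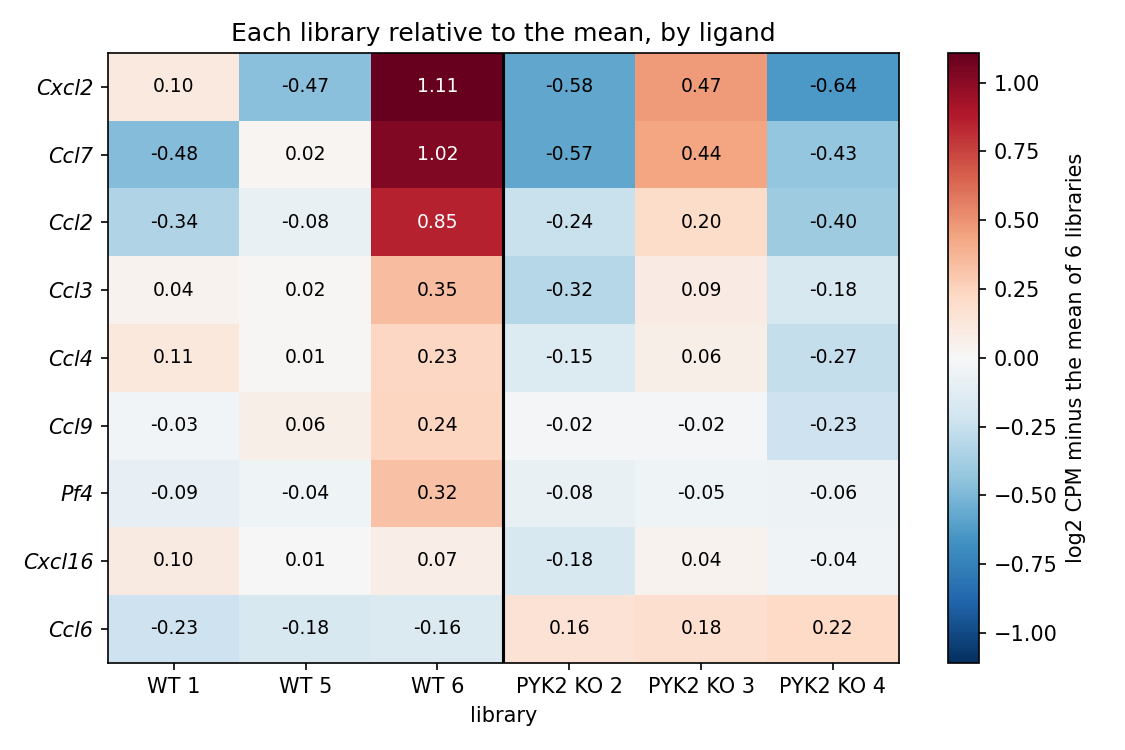
Log2 CPM of each ligand in each library minus its mean over the 6 libraries. WT library 6 is the highest for Cxcl2 (1.11), Ccl7 (1.02) and Ccl2 (0.85), PYK2 KO library 3 is the next for these 3, and Ccl6 splits by genotype.

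Across the 6 libraries, 28 of 36 pairs of ligands had a positive Pearson correlation of log2 CPM, and all 8 pairs with Ccl6 a negative one. Taken as deviations from each genotype's mean, 34 of the 36 pairs were positive, and so were 7 of the 8 with Ccl6, from 0.075 for Ccl9 to 0.595 for Pf4, with -0.144 for Ccl4. Of the 36 exact permutation p-values, 11 were under 0.05 and 0 were after adjustment over the pairs. Ccl2 and Ccl7 had r = 0.968 and rho = 0.771 (exact permutation p = 0.0167 and 0.103, adjusted 0.12 and 0.285), and r was 0.764 without WT library 6 and PYK2 KO library 3. Ccl3 and Ccl4 had r = 0.898 and rho = 0.886 (exact permutation p = 0.025 and 0.0333, adjusted 0.143 and 0.2). Their r was 0.958 without WT library 6 and PYK2 KO library 2, the 2 farthest from the median of Ccl3. Ccl2 and Cxcl2 had r = 0.879 (exact permutation p = 0.0528, adjusted 0.146). It fell to -0.149 without WT library 6 and PYK2 KO library 3, the 2 farthest from the median of Ccl2, and so rests on them. Each pair shares its libraries and their depth.

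In GRCm38, Ccl9, Ccl6, Ccl3 and Ccl4 lie within 1 cluster of chromosome 11, on the minus strand except for Ccl4, at chr11:83572919-83578636, chr11:83587882-83593087, chr11:83647844-83649355 and chr11:83662584-83664683, with 9.2 kb between Ccl9 and Ccl6 and 54.8 kb between Ccl6 and Ccl3. Ccl2 (chr11:82035571-82037453) and Ccl7 (chr11:82045712-82047525) lie 8.3 kb apart on the plus strand in another cluster of the same chromosome, and Cxcl16 lies apart from both at chr11:70453983-70459984 on the minus strand. Pf4 (chr5:90772435-90773383) and Cxcl2 (chr5:90903871-90905938) lie 130.5 kb apart on the plus strand of chromosome 5, where Ccl24 lies farther on at chr5:135569937-135573049 on the minus strand. E230016K23Rik overlaps Ccl6 on the opposite strand and had 2 counts in all. Within 250 kb of the clusters, 6 tested genes were not chemokine ligands and 0 of them were called by edgeR, DESeq2 or limma-voom. Wfdc17, singled out after its value was seen as the 1 of them at an unadjusted p under 0.05, lies beyond Ccl4 and had a log2 fold change of 0.43 (edgeR adjusted p = 0.725). Its log2 fold change was 0.15 without PYK2 KO library 4 and 0.67 without PYK2 KO library 3, where edgeR called it (adjusted p = 0.0227, against 0.734 or higher without any other library). Without the filter on low counts edgeR also called it, alone among the 6.

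**Figure D4:**
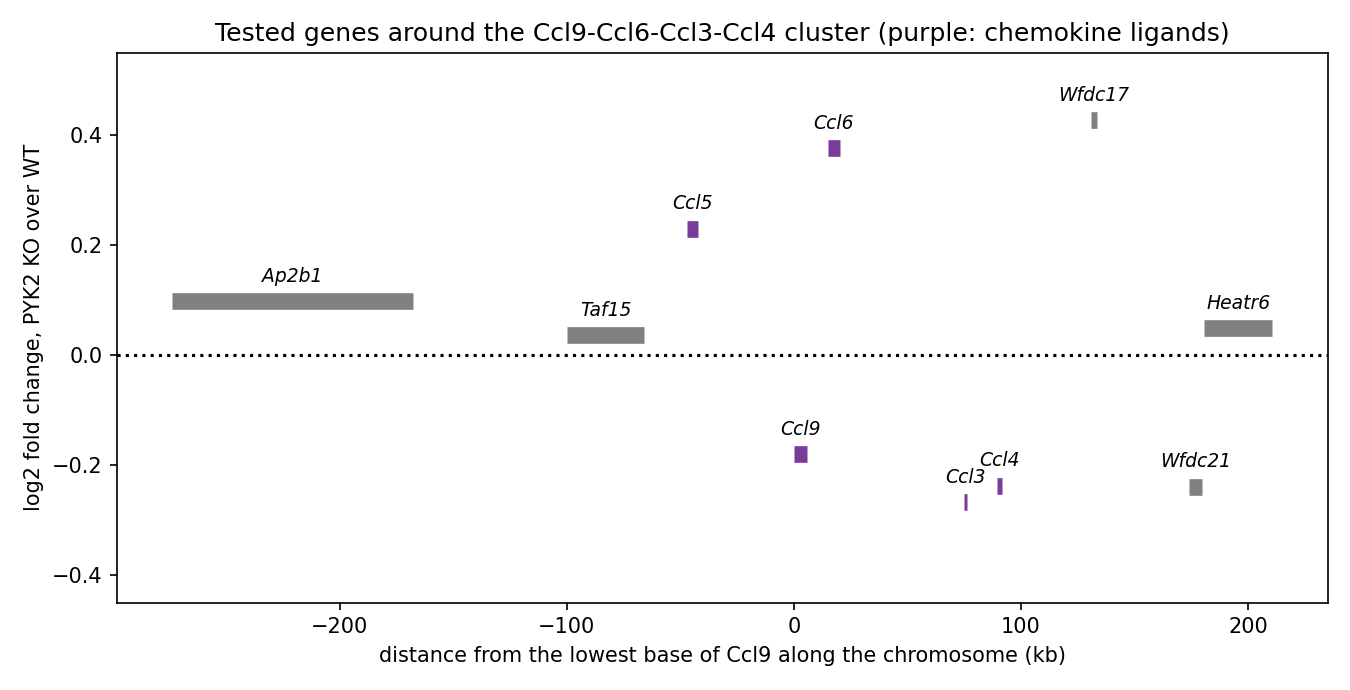
Log2 fold change of the tested genes around the cluster that holds Ccl9, Ccl6, Ccl3 and Ccl4, against distance in kb from the lowest base of Ccl9 on the chromosome; bars span each gene and purple marks chemokine ligands. Ccl6 (0.38) lies between Ccl9 (-0.18) and Ccl3 (-0.27) without sharing their sign, though neither of these neighbours passed the test.

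Of 29 other chemokine ligand genes in the table, 16 had no count in any library and 5 passed the filter. Tests by edgeR, DESeq2 and limma-voom called 0 of the 5, and 0 had an unadjusted p under 0.05. The most counted were Ccl25 with 109 counts in all, Cxcl10 with 78, Ccl12 and Cxcl14 with 77 each and Ccl5 with 58, and their log2 fold changes ran from -0.34 for Cxcl14 to 0.23 for Ccl5. All 29 summed to 23.6 to 31.9 CPM per library, against 2303 to 3030 CPM for the 10 ligands.

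Of the 9 receptors that bind the ligands, 3 passed the filter and 0 were called by edgeR, DESeq2 or limma-voom. Ccr1, the receptor of Ccl6, Ccl9 and Ccl3, had 15, 15 and 16 counts in WT and 7, 29 and 31 in PYK2 KO (log2 fold change 0.68, edgeR adjusted p = 0.905). Cxcr3, the only receptor of the list at an unadjusted p under 0.05, had 37, 43 and 37 counts in WT and 30, 22 and 24 in PYK2 KO (-0.48, edgeR adjusted p = 0.824). Scaled to library size the genotypes overlapped, with 9.62 CPM in PYK2 KO library 2 and 9.45 CPM in WT library 1. Ccr2, the receptor of Ccl2 and Ccl7, had 12, 7 and 4 counts in WT and 3, 6 and 1 in PYK2 KO, and Cxcr2 had 1 to 6 counts per library. Ccr3, Cxcr6, Ackr1 and Ackr2 had no count, which allows up to 3 counts per library.

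NF-κB factors, their inhibitors and proteins that bind AU-rich elements control many chemokine mRNAs, and the list of them also held Dusp1 and Zc3h12a, which are in none of these classes by their main activity. All 21 genes of the list passed the filter, 0 were called by edgeR, DESeq2 or limma-voom, and the median log2 fold change was -0.04. Of the 21, 4 had an unadjusted p under 0.05, all lower in PYK2 KO, where 2.63% of all genes tested did. Dusp1, a phosphatase that switches off MAP kinases, was at 31.4, 28.3 and 40 CPM in WT and 13.2, 29.8 and 15.5 CPM in PYK2 KO, where library 3 was within the WT range, with a log2 fold change of -0.77 (edgeR adjusted p = 0.497). Zc3h12a, an RNase that degrades cytokine mRNAs, had a log2 fold change of -0.36 (edgeR adjusted p = 0.611) and Nfkbiz, an NF-κB cofactor, of -0.60 (edgeR adjusted p = 0.65). Zfp36, which binds AU-rich elements and was singled out after its value was seen, was at 45.7, 49.5 and 82.4 CPM in WT and 42.3, 45.7 and 39.6 CPM in PYK2 KO, where WT library 6 was high and the others overlapped, with a log2 fold change of -0.46 (edgeR adjusted p = 0.702). Without WT library 6 the Zfp36 value was -0.16 (adjusted p = 0.87), and without PYK2 KO library 3 edgeR called Dusp1, at -1.20 (adjusted p = 0.0185, against 0.436 or higher without any other library). Without the filter on low counts edgeR called 2 of the 21, Dusp1 and Zfp36, with 0.852% called over all genes.

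Of 15 other inflammatory genes of activated macrophages, 5 passed the filter, 0 were called by edgeR, DESeq2 or limma-voom and the median log2 fold change was -0.18. Osm, an IL-6 family cytokine, had -0.55 and was the 1 gene with an unadjusted p under 0.05 (edgeR adjusted p = 0.783), Csf1 had 0.26 and Il1rn -0.14. The summed level of the list was highest in WT library 6, at 246 CPM against 168 to 212 CPM in the other 5. Most of this excess was Tnf, singled out after its value was seen. Tnf was at 116 CPM in WT library 6 and at 51.9 to 84.2 CPM in the other 5, with a log2 fold change of -0.21. Of 14 IL-4 response genes 9 passed, 0 were called by these 3 tools and 1, Stat6, the transcription factor of the IL-4 receptor, had an unadjusted p under 0.05 (log2 fold change -0.24, edgeR adjusted p = 0.583). Clec10a and Mrc1 had 0.32 and 0.25, and the median was -0.06. Of 11 proteases and proteoglycans that cut or hold chemokines, 10 passed, and 0 were called or had an unadjusted p under 0.05 in edgeR, with 0 called by DESeq2 or limma-voom. Srgn, which holds chemokines in granules, had a log2 fold change of 0.15, Adam17 0.09 and Sdc3 -0.10, with a median of 0.02.

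Over the 6 libraries, the genes whose log2 CPM was most like that of Ccl6 were F13a1 (r = 0.991), Gm50143 (0.990) and Saa3 (0.990), among 9814 genes compared. F13a1, a coagulation factor subunit, had a log2 fold change of 0.64 (edgeR adjusted p = 0.000647). Saa3, an acute phase protein, had 1.09 (edgeR adjusted p = 5.67e-06). Gm50143 had 0.62 and did not pass (edgeR adjusted p = 0.725). Like Ccl6, each was higher in every PYK2 KO library than in any WT library, as were 5.17% of all genes tested. Because Ccl6 split by genotype, a high r over the 6 libraries favours genes with the same split. These r values and fold changes are thus not separate evidence, and co-regulation with Ccl6 was not tested.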

How the data were processed

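The libraries came from cultures of 3 WT and 3 PYK2 KO mice. Unnormalized counts of each gene were deposited as whole numbers, which the UTAP pipeline had made from the MARS-seq reads. Cutadapt, STAR and the mm10 build are named by the submitters' processing notes. Their versions, and whether molecular identifiers or strand were used in counting, are not given in the sources used here. There were 0 columns of other samples and 0 rows that name no gene. Each column was matched to its mouse by name.

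Tests over all genes used edgeR 4.0.16 in R 4.3.3 (TMM, filterByExpr, quasi-likelihood F test on genotype, Benjamini-Hochberg adjusted p under 0.05 over the 9815 genes that passed). The code was tested on simulated data. Intervals (95%) used the SE and edgeR's total degrees of freedom, CPM used the TMM-scaled library size, and log2 CPM a prior count of 2. Counting intervals and floors (3 counts) cover counting error only. Tests over libraries and correlations were exact 2-sided permutation tests (SciPy 1.17.1, Python 3.11.15). Alternatives were RLE, upper-quartile or no scaling, no filter, at least 10 counts in every library, the likelihood ratio test, DESeq2 1.42.0, limma-voom 3.58.1, and leaving out each library. Same-genotype libraries differed beyond counting noise, so none was a duplicate.

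The members and lists were chosen with earlier results of these data known. All 10 ligands, Ptk2b and the receptors are named, with the 5 most counted other ligands, the 3 genes of smallest p in each other list (markers of other cell types included) and the 3 genes most correlated with each ligand. Some genes that this rule names are not reported here. Promoters came from RefSeq (GRCm38.p6) and gene positions and 3′ UTRs from GENCODE M21 (GRCm38), using the longest coding transcript of each gene in the basic set.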

Additional observations from a re-analysis of the deposited data

How the results depend on the processing

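Of 126 values of the 9 tested ligands under 14 alternatives, 116 kept their direction and side of the threshold, 6 kept only the direction, 1 newly passed the threshold and 3 reversed. The 25 genes called became 159 without a filter (95 higher and 64 lower) and 45 with the likelihood ratio test, and ran from 14 to 34 when 1 library was left out. Without a filter Ccl2 passed, at -0.36. Without WT library 6, Ccl2 (0.079), Ccl7 (0.091) and Pf4 (0.0037) reversed. Leaving out each library in turn lost the call of Ccl6 each time, with log2 fold changes of 0.36 to 0.39. The ranges were -0.58 to 0.079 for Ccl2, -0.39 to -0.16 for Ccl3, -0.33 to -0.16 for Ccl4, -0.80 to 0.091 for Ccl7, -0.24 to -0.10 for Ccl9, -1.01 to -0.03 for Cxcl2, -0.16 to -0.06 for Cxcl16 and -0.21 to 0.0037 for Pf4. The median correlation between ligands was 0.742. It fell to 0.284 when each pair was taken without the 2 libraries farthest from the median of its first ligand. The libraries left out thus differed from pair to pair. The cause was not tested beyond the library or filter each alternative changes. No paired analysis was possible because no mouse number occurs in both genotypes (1, 5 and 6 are WT, 2, 3 and 4 PYK2 KO). With 3 mice a group, the low counts of Ccl24 and of most receptors limit what could be detected.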

Other observations

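The ratio of Ccl2 to Ccl7 counts ran from 4.93 to 7.35 over the 6 libraries and that of Ccl3 to Ccl4 from 1.01 to 1.22, with the genotypes overlapping in both. The genes whose log2 CPM was most like that of the other ligands over the 6 libraries were Slc25a37, Pgam5 and Alg9 for Ccl2, Vps33b, Vps35l and Gm17251 for Ccl3, 4931440P22Rik, Zfp622 and Casp6 for Ccl4, Cpsf4, Pgam5 and Rngtt for Ccl7, Snx20, Uchl1 and Alyref for Ccl9, Nup93, Phtf2 and Ginm1 for Cxcl2, Ivd, Nudt7 and Cog2 for Cxcl16, and Ctsl, Mrpl24 and Mad1l1 for Pf4. Their edgeR adjusted p-values were 0.591 or higher. The 6 points of each share depth and library preparation.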
